A study of Homo sapiens with 30 samples.

Results

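ZSCAN31 is a gene for a zinc finger protein with a SCAN domain. It was followed here together with 6 relatives (ZSCAN2, ZSCAN16, ZSCAN21, ZKSCAN1, ZKSCAN3 and ZKSCAN5) across human cancer cell lines treated with ML-792, an inhibitor of the SUMO-activating enzyme. The 7 genes were taken by name from the 30373 genes of the deposited table, and all 7 were found. ZSCAN31 was chosen by its measured change with ML-792 at 16 h, higher in every line, so its 16 h values with ML-792 are a description without a test. How the values of the other 6 entered the choice is not recorded, so their 16 h responses are also given without a test.

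Polyadenylated RNA was sequenced in 30 libraries, 10 groups of 3, which the labels describe as biological triplicates. HCT116 and COLO205 (colorectal cancer lines) and MDAMB231 (a breast cancer line) received ML-792 at 500 nM or the vehicle DMSO at 0.01% for 16 h, which gave 6 groups. HCT116 cells received the same treatments for 3.5 h in the other 4 groups, either with heat shock or without. Those given heat shock had drug or vehicle for 2 h, were then held at 43 °C for 0.5 h, and recovered at 37 °C for 1 h. Each line is a cultured tumour line and not a tissue. In such bulk samples, a change in the share of cells that carry an RNA and a change of that RNA per cell cannot be told apart.

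SCAN domains are short protein-binding modules through which zinc finger proteins of this family pair with each other. The zinc fingers of these proteins bind DNA, and the ZKSCAN members also carry a KRAB box, a repressor module. SUMO is a small protein attached to lysines of other proteins, many of them transcription factors and their repressor partners, and heat shock is known to raise its attachment widely.

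Upstream sequence is shown for the members called higher after heat shock in both treatments (below). This is because the heat shock factor HSF1 binds runs of inverted units of the letters nGAAn, and a pair is only part of such a run. RefSeq windows of 300 bases (250 before a start and 50 after it) were at hand for 6 of the 7 genes, 10 windows in all, on GRCh38.p14; ZSCAN16 had none in that table. Capitals mark 2 kinds of match on either strand, a pair of heat shock units (TTCNNGAA or GAANNTTC) and the ETS-factor motif CCGGAAG.
ZSCAN31, upstream start, chr6:28356222-28356521, minus strand: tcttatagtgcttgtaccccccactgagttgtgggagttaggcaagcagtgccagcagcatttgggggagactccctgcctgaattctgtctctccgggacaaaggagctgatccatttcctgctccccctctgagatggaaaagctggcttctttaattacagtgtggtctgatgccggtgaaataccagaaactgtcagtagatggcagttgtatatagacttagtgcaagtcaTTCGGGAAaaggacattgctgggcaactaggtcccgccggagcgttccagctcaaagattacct
ZSCAN31, downstream start, chr6:28336099-28336398, minus strand: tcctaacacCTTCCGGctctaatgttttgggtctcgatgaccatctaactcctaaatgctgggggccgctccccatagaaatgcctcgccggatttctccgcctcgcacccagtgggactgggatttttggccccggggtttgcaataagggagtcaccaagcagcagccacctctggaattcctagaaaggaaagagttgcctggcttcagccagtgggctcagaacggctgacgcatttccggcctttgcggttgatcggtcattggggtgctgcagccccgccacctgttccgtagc
ZKSCAN5, first of its starts, chr7:99504412-99504711, plus strand: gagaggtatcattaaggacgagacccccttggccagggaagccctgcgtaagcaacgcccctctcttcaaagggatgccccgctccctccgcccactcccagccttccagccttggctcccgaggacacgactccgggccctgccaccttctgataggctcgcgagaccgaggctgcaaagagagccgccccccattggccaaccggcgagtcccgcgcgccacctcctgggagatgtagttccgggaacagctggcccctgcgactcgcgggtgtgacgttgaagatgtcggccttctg

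The upstream ZSCAN31 window held the pair TTCGGGAA, which began 14 bases before the start. It was the only 1 of the 10 windows with such a pair, and none held 3 units in a row in either phase. Over all 35116 RefSeq windows, TTCNNGAA stood in 7.74% and GAANNTTC in 6.77%, and each phase of 3 units in 0.49%. CCGGAAG stood in 10.3% of all windows and in 4 of the members' 10, 1 each of ZSCAN31, ZKSCAN3, ZKSCAN1 and ZSCAN21. The ZKSCAN1 window held 3 copies. A match of letters is not a shown binding site, and which start each gene used in these cells was not measured.

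Levels are given as FPKM, fragments scaled by transcript length and by the size of the library. Libraries fell in ranges of estimated depth of 27.5 to 35.3 M (mega) fragments at 16 h, 37.7 to 56 M with heat shock and 48.6 to 74.1 M at 3.5 h without it. The lines carried their defining markers in part. EPCAM was at 113 FPKM ± 7.57 (SD, n = 3) in HCT116 and 467 ± 16.7 (SD, n = 3) in COLO205 with DMSO at 16 h, but the gut gene VIL1 was at 0.0188 in HCT116 against 114 in COLO205. Opposite to VIL1, the gut gene CDX2 was at 5.87 in HCT116 and 0.275 in COLO205. Vimentin (VIM) was at 884 FPKM ± 40.6 (SD, n = 3) in MDAMB231. Of 6 mesenchymal markers, 5 had a mean of 1 FPKM or more there, and likewise 5 in HCT116. SPARC was lower in MDAMB231 (0.191) than in HCT116 (0.573). Of the luminal breast markers, GATA3 (3.08) and ERBB3 (1.125) were present in MDAMB231, while ESR1 and PGR were near 0. These values are with DMSO at 16 h. The heat shock gene HSPA1B rose from 175 FPKM ± 9.32 to 4181 ± 475 (SD, n = 3 each) in DMSO, as a check of the heat shock labels. Of the 3 blood markers listed, PTPRC and CD3E did not pass 0.0593 FPKM in any library, while CD68 stood at 4.53 FPKM in HCT116, 158 in COLO205 and 55.9 in MDAMB231 with DMSO at 16 h.

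**Figure D1:**
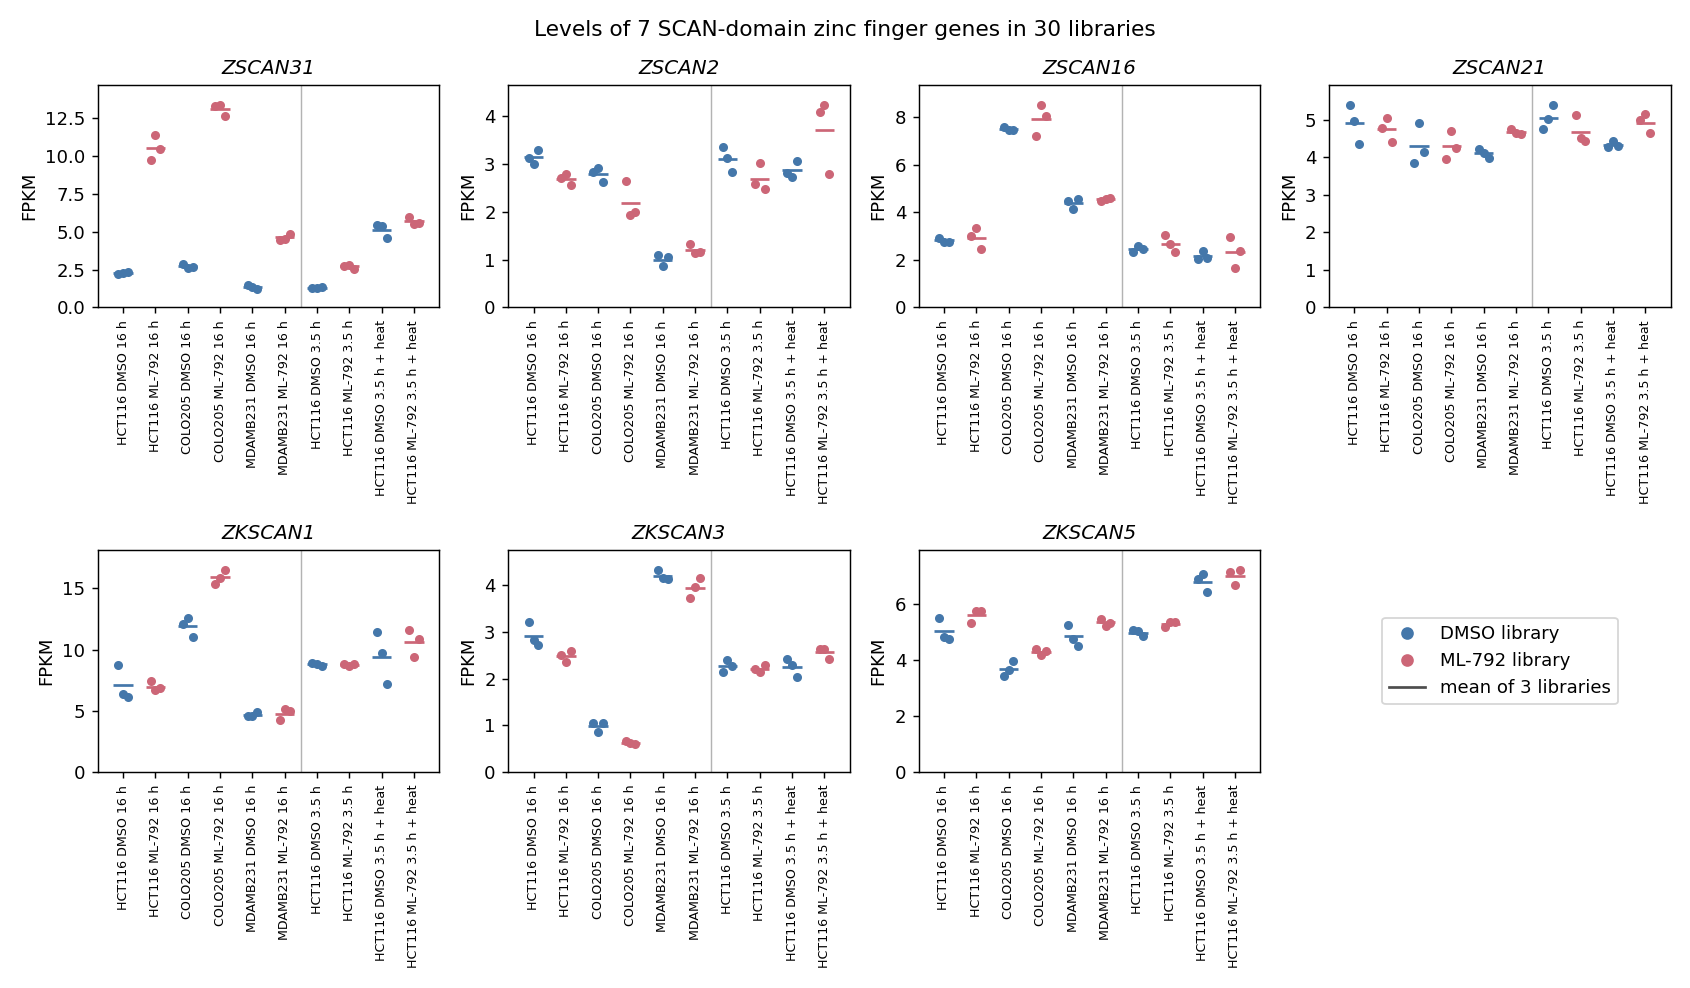
FPKM of each of the 7 genes (vertical axes, linear, from 0) in the 10 groups (horizontal axis); points are libraries, bars the mean of 3, and the grey line parts the 16 h groups from the 3.5 h groups. ZSCAN31 runs from 1.22 to 13.4 FPKM and is higher with ML-792 at 16 h in each line, while ZSCAN21 stays between 3.84 and 5.38.

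The level of ZSCAN31 differed most between groups among the 7 genes, with a 9.97-fold span of group means. That span includes the 16 h ML-792 groups on which ZSCAN31 was chosen. Outside those groups its means ran from 1.32 to 5.69 FPKM, and those of ZKSCAN3 from 0.989 to 4.20. With DMSO at 16 h ZSCAN31 stood at 2.21, 2.30 and 2.36 FPKM in the 3 HCT116 libraries, at 2.90, 2.59 and 2.66 in COLO205, and at 1.498, 1.35 and 1.22 in MDAMB231. With ML-792 it stood at 9.77, 11.4 and 10.5 FPKM in HCT116, 13.3, 13.4 and 12.7 in COLO205, and 4.48, 4.55 and 4.85 in MDAMB231. In every line all ML-792 libraries lay above all DMSO libraries. The ratio of mean FPKM was 4.60 in HCT116, 4.82 in COLO205 and 3.41 in MDAMB231. On the log2(FPKM + 1) scale used for tests, which understates changes of low genes, the differences were 1.81 ± 0.06, 1.92 ± 0.06 and 1.26 ± 0.06 (SE).

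Ordered by group mean, ZSCAN31 was lowest in HCT116 with DMSO at 3.5 h (1.32 FPKM) and in MDAMB231 with DMSO at 16 h (1.36), groups that overlapped. HCT116 with DMSO at 16 h (2.29) came next, then COLO205 with DMSO (2.72) and HCT116 with ML-792 at 3.5 h (2.72), which overlapped. MDAMB231 with ML-792 (4.63) overlapped heat shocked HCT116 in DMSO (5.12). Heat shocked HCT116 in ML-792 (5.69), HCT116 with ML-792 at 16 h (10.5) and COLO205 with ML-792 (13.1) followed without overlap. The 16 h and 3.5 h HCT116 libraries came from separate sets, so time and set cannot be told apart.

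ZSCAN31 was also higher after 3.5 h of ML-792, in libraries that had no part in its choice. HCT116 cells had 1.28, 1.31 and 1.35 FPKM with DMSO and 2.77, 2.82 and 2.57 with ML-792. The groups did not overlap, and the ratio of means was 2.07. The change was 0.68 ± 0.06 (SE) on the log2(FPKM + 1) scale (limma, Benjamini-Hochberg adjusted p = 9.1e-05, 3 against 3 libraries). Of the 12191 genes tested, 20 rose by more. Among the 7 genes 1 was called in this comparison, at an adjusted p under 0.05, against 1.21% of all genes tested (1.02% higher and 0.189% lower).

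The other 6 genes were not called at 3.5 h. Their changes ran from -0.15 ± 0.11 for ZSCAN2 to 0.08 ± 0.12 for ZSCAN16 (SE), with limma adjusted p of 0.993 to 1. The 95% intervals of the change reached from -0.39 to 0.08 for ZSCAN2 and from -0.18 to 0.34 for ZSCAN16. For ZKSCAN3, a KRAB zinc finger protein known as a repressor of autophagy genes, the interval ran from -0.16 to 0.11. A rise of the size seen for ZSCAN31 lay outside the interval of each of the 6. How the values of these 6 entered their choice is not recorded, so this contrast holds for the 6 named genes only.

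**Figure D2:**
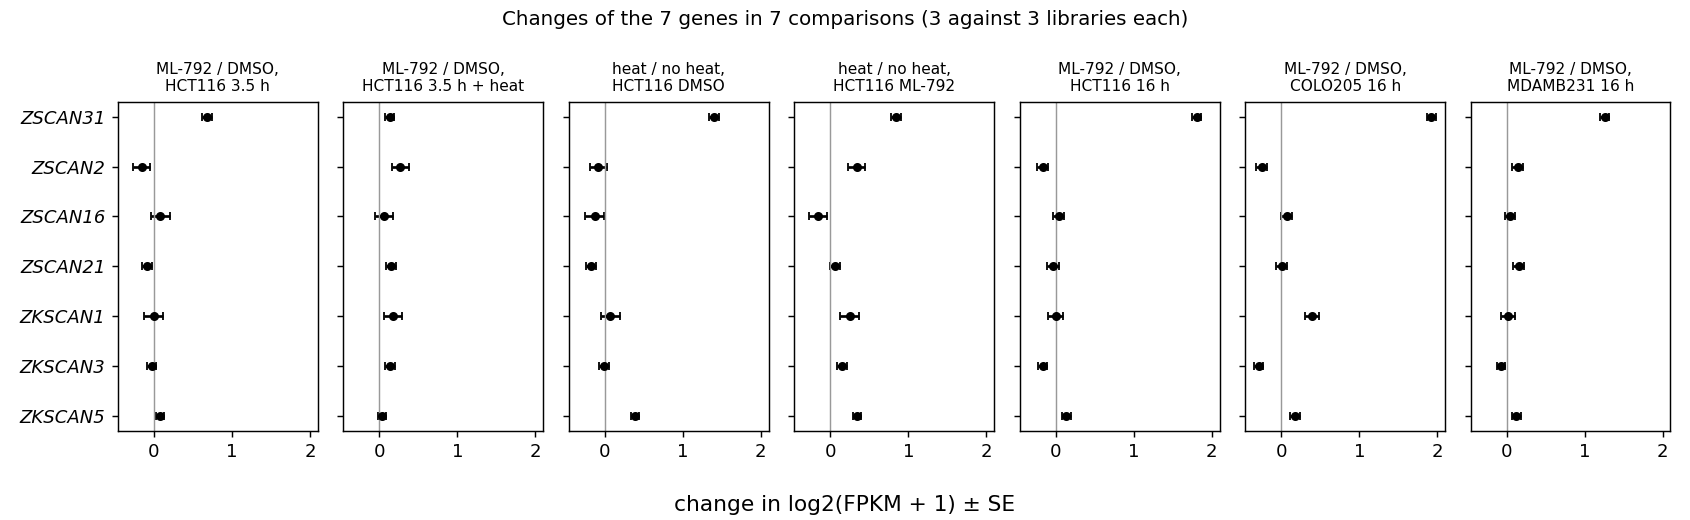
Change in log2(FPKM + 1) of each of the 7 genes (rows) in 7 comparisons (panels, common horizontal axis); points are estimates from 3 against 3 libraries and bars are ± 1 SE. ZSCAN31 lies right of 0 by 0.68 after 3.5 h of ML-792 and by 1.40 after heat shock in DMSO, while the ML-792 change in heat shocked cells is 0.13.

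The heat shocked and unheated 3.5 h libraries bear separate series of library numbers, so heat shock and library set cannot be told apart. ZSCAN31 was higher after heat shock without ML-792. After heat shock in DMSO the libraries stood at 5.43, 5.35 and 4.60 FPKM, against 1.28, 1.31 and 1.35 without it. All heat shocked libraries were higher, by 3.90-fold in the mean. The change was 1.40 ± 0.06 (SE; limma adjusted p = 2.36e-09), and 188 of the 12191 genes rose by more. Of the 7 genes, 3 were called in this comparison, against 49.5% of all genes tested (28.9% higher and 20.6% lower).

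ZKSCAN5, a KRAB and SCAN zinc finger gene, was the other member called higher after heat shock. It went from 5.06, 5.04 and 4.86 FPKM to 6.91, 7.07 and 6.45 in DMSO, without overlap. Its change was 0.38 ± 0.05 (SE; limma adjusted p = 7.85e-05). With every library scaled to the same summed FPKM the change was 0.18 (adjusted p = 0.0801), so the call ended. ZSCAN21, known as a regulator of the alpha-synuclein gene, fell from 4.74, 5.02 and 5.38 FPKM to 4.28, 4.43 and 4.28. Its change was -0.18 ± 0.06 (SE; limma adjusted p = 0.0332), and the call was lost on leaving out any of 5 of the 6 libraries (each heat shocked library, or untreated replicate 2 or 3), with adjusted p of up to 0.138.

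Heat shocked libraries also stood apart as a whole. Their summed FPKM was 608121 to 732251 against 552951 to 575982 without heat shock, and the median SD between replicates was 0.0904 (DMSO) and 0.112 (ML-792) log2 units against 0.0421 and 0.0449. Under equal totals, 22.2% of the genes called after heat shock in DMSO were higher, against 58.4% without that scaling, and the median change over all genes was -0.16 against 0.05. The ZSCAN31 change remained called in each of the 9 other settings tried, with changes of 0.68 to 1.88. Of 8 markers of blood, endothelium and fibroblasts, the sum rose from 4.488 to 4.995 FPKM per library in DMSO without heat shock to 17.3 to 19.4 with it, mainly through COL1A1 (1.59 to 14.6 FPKM). CD68 went from 3.14 to 4.03 FPKM, and PTPRC, CD3E and the endothelial marker CDH5 were near 0 with and without heat shock. The part of these shifts in the results was not tested.

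In cells already given ML-792, ZSCAN31 stood at 2.77, 2.82 and 2.57 FPKM without heat shock and at 5.95, 5.53 and 5.60 with it. The groups did not overlap and the ratio of means was 2.09. The change was 0.85 ± 0.06 (SE; limma adjusted p = 2.86e-07), and 475 genes rose by more. This comparison and the one in DMSO share no library. Of the 7 genes, 3 were called here, against 61.7% of all genes tested (39.3% higher and 22.3% lower). Of the calls, 63.8% were higher, against 24.2% under equal totals and 50.3% with median-of-ratios scaling.

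ZKSCAN5 stood at 5.19, 5.36 and 5.37 FPKM with ML-792 alone and at 7.14, 6.69 and 7.22 with heat shock added. Its change was 0.35 ± 0.05 (SE; limma adjusted p = 0.000135), but 0.09 (adjusted p = 0.361) under equal totals. ZSCAN2 gave 2.58, 3.03 and 2.48 FPKM without and 4.09, 4.24 and 2.80 with heat shock. The third heat shocked library lay within the range of the others, so the groups overlapped. The change of 0.34 ± 0.11 (SE; limma adjusted p = 0.0173) lost its call without heat shocked replicate 1 or 2 or unheated replicate 1 or 3 (adjusted p of 0.0545 to 0.071), under equal totals, with these groups fitted alone, and with the GC and length trend removed. ZKSCAN3 missed the threshold (0.15 ± 0.06, SE; adjusted p = 0.0504).

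Among heat shocked cells, ZSCAN31 did not pass the test between ML-792 and DMSO. ZSCAN31 stood at 5.43, 5.35 and 4.60 FPKM with DMSO and at 5.95, 5.53 and 5.60 with ML-792, so that the ML-792 libraries were the higher 3 by a small margin. The change was 0.13 ± 0.06 (SE, 95% interval -0.01 to 0.27; limma adjusted p = 0.125). None of the 7 genes was called by limma, against 33.5% of all genes tested (18.4% higher and 15.1% lower). That background depended on the fit: with these groups fitted alone, 255 of 11978 genes were called. Of the calls, 54.9% were higher, against 32.8% under equal totals and 37.1% with median-of-ratios scaling. At an unadjusted p under 0.05 there were 3, ZSCAN2 (0.27 ± 0.11), ZSCAN21 (0.15 ± 0.06) and ZKSCAN3 (0.14 ± 0.06, SE). At that looser threshold the share over all genes is at least the 33.5% called after adjustment, so the 3 do not set the members apart. Without ML-792 replicate 3, ZSCAN2 was called (0.42, adjusted p = 0.0027). Without DMSO replicate 1, ZKSCAN1 was called (0.31, adjusted p = 0.0473). With the GC and length trend removed, ZSCAN31 was called (0.20, adjusted p = 0.0323).

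The ML-792 change of ZSCAN31 was smaller with heat shock than without. The difference of the changes was -0.55 ± 0.09 (SE; limma interaction contrast over 12 libraries, adjusted p = 0.00911), which is also the difference between the heat shock changes in ML-792 and in DMSO. It held on leaving out each of the 12 libraries (-0.62 to -0.52, adjusted p of at most 0.0382) and in 9 other settings (-0.84 to -0.21). Of the 7 genes this 1 was called, against 6.41% of all genes tested. ZSCAN2 had the difference farthest from 0 of the rest, 0.42 ± 0.15 (SE; adjusted p = 0.0956), and passed without heat shocked ML-792 replicate 3 (0.57, adjusted p = 0.00557).

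In vehicle at 16 h the 7 genes differed between lines, as most genes did. Of the 7, 5 were called between COLO205 and HCT116 (84.9% of all genes tested), 6 between MDAMB231 and HCT116 (83.6%) and 6 between MDAMB231 and COLO205 (86.4%). These comparisons share DMSO libraries with each other and with the 16 h changes by which ZSCAN31 was chosen. ZSCAN31 is in each count, but its own differences are given here without a test. It was higher in COLO205 than in HCT116 by 0.18 ± 0.06 and lower in MDAMB231 than in HCT116 by -0.48 ± 0.06 (SE).

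ZKSCAN3 and ZSCAN16, near ZSCAN31 on chromosome 6, differed in their order across lines. ZKSCAN3 with DMSO stood at 3.21, 2.82 and 2.72 FPKM in HCT116, 1.06, 0.858 and 1.05 in COLO205 and 4.32, 4.15 and 4.12 in MDAMB231. ZSCAN16 stood at 2.93, 2.75 and 2.77 FPKM in HCT116, 7.58, 7.49 and 7.45 in COLO205 and 4.48, 4.14 and 4.58 in MDAMB231. No line overlapped another for either gene, though the share of all genes without overlap was not worked out. ZKSCAN3 was -0.98 ± 0.06 in COLO205 against HCT116 (SE; limma adjusted p = 8.99e-12), and ZSCAN16 was 1.16 ± 0.07 (SE; adjusted p = 1.71e-11).

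ZKSCAN1, the host gene of a widely studied circular RNA, was highest in COLO205. Its DMSO libraries stood at 12.1, 12.6 and 11.01 FPKM there, 8.74, 6.39 and 6.11 in HCT116 and 4.60, 4.61 and 4.88 in MDAMB231. ZSCAN2 was lowest in MDAMB231, at 1.09, 0.872 and 1.05 FPKM, against 3.13, 3.01 and 3.29 in HCT116 and 2.83, 2.91 and 2.64 in COLO205. The change of ZSCAN2 from HCT116 to MDAMB231 was -1.05 ± 0.07 (SE; limma adjusted p = 1.18e-10), while that to COLO205 missed the threshold (-0.13 ± 0.07, SE; adjusted p = 0.103).

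ZSCAN21 and ZKSCAN5 varied least between groups, by 1.23-fold and 1.90-fold in group means. ZSCAN21 was lower in MDAMB231 than in HCT116 by -0.21 ± 0.08 (SE; limma adjusted p = 0.0178), a call that ended without HCT116 replicate 1 (adjusted p = 0.1) or MDAMB231 replicate 3 (adjusted p = 0.0562) and under 3 other settings. ZKSCAN5 was lower in COLO205, at 3.44, 3.66 and 3.98 FPKM, than in HCT116, at 5.49, 4.83 and 4.75 (-0.36 ± 0.06, SE; adjusted p = 1.96e-05). In the annotation, 880 exon bases of ZSCAN21 are shared with ZNF3 on the opposite strand. ZSCAN2 and ZSCAN16 share exon bases with antisense RNAs, and whether the counting used strand is not stated, which leaves these levels uncertain to that extent.

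The 16 h responses of the 6 relatives to ML-792 are given without a test. They were small beside that of ZSCAN31, which was itself chosen by its 16 h change. In COLO205, ZKSCAN1 went from 12.1, 12.6 and 11.01 to 15.4, 15.8 and 16.5 FPKM, a change of 0.39 ± 0.09 (SE). In the same line ZKSCAN3 went from 1.06, 0.858 and 1.05 to 0.660, 0.620 and 0.599 FPKM, a change of -0.29 ± 0.06 (SE). Both moved without overlap, in opposite directions, though the share of all genes without overlap was not worked out. ZKSCAN3 changed by -0.17 ± 0.06 in HCT116 and -0.07 ± 0.06 in MDAMB231, and ZKSCAN1 by 0.00 ± 0.09 and 0.02 ± 0.09 (SE).

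ZSCAN2 was lower with ML-792 in HCT116, at 2.71, 2.79 and 2.57 against 3.13, 3.01 and 3.29 FPKM. In MDAMB231 it was higher, at 1.33, 1.14 and 1.16 against 1.09, 0.872 and 1.05 FPKM. Neither pair of groups overlapped, which again has no share over all genes beside it. In COLO205, where 1 library overlapped the DMSO range, the change was -0.25 ± 0.07 (SE). ZSCAN16 changed by 0.04 to 0.07 and ZKSCAN5 by 0.12 to 0.18 across the lines, and ZSCAN21 by -0.04 to 0.15. Over all genes, 14.7% were called in HCT116 (8.32% higher and 6.42% lower), 37% in COLO205 (19.4% and 17.7%) and 16.9% in MDAMB231 (8.38% and 8.48%).

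**Figure D3:**
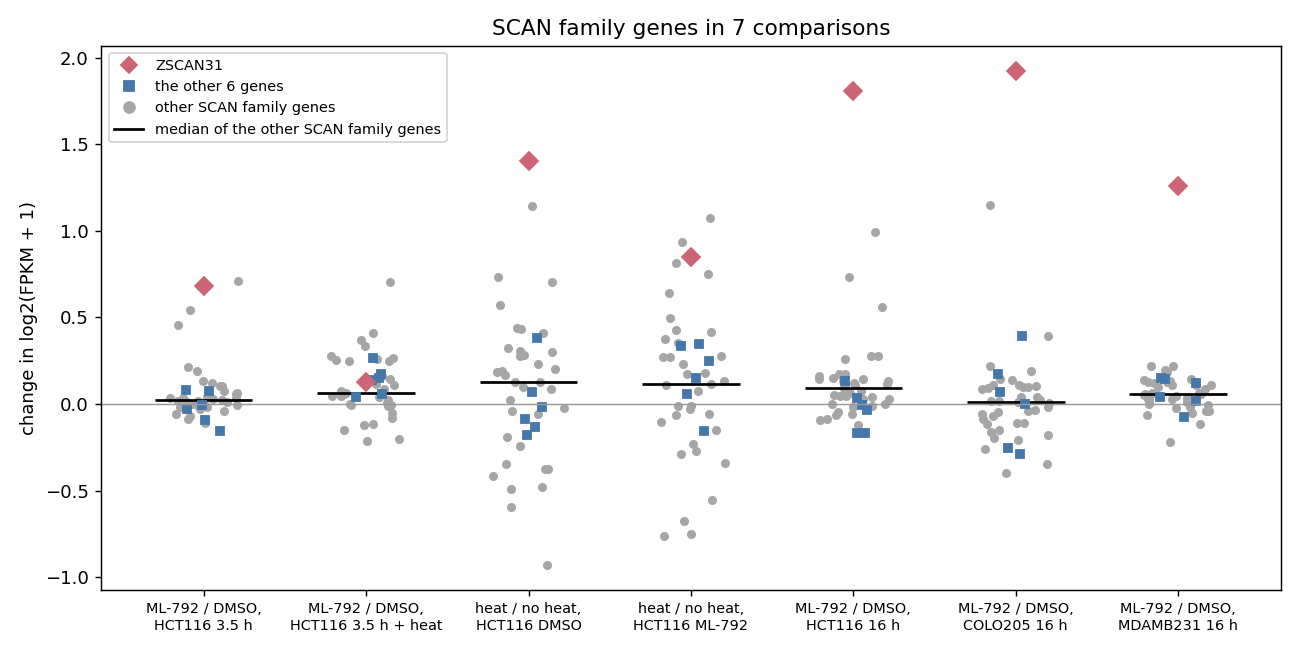
Change in log2(FPKM + 1) (vertical axis) of SCAN family genes in 7 comparisons of 3 against 3 libraries; grey points are other family genes (35 at 3.5 h, 38 at 16 h), squares the 6 relatives, the diamond ZSCAN31, and black bars the median of the other family genes. ZSCAN31 lies above all other points at 16 h, where it was chosen by its change, and after heat shock in DMSO. After 3.5 h of ML-792 it does not, since ZNF274 is at 0.71.

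The remaining SCAN family was taken from a list of 48 genes, of which 47 were in the table and 35 (3.5 h) or 38 (16 h) passed the filter on low values. After 3.5 h of ML-792, 3 of the 35 rose and 0 fell, against 1.02% and 0.189% of all genes tested (23 genes fell by limma over the whole table). They were ZNF274 (0.71 ± 0.09, adjusted p = 0.000851), ZNF75A (0.54 ± 0.09, adjusted p = 0.00966) and ZNF165 (0.46 ± 0.09, SE; adjusted p = 0.0262). ZNF274 is known to recruit a histone methyltransferase to zinc finger gene clusters, and ZNF165 is known as a cancer-testis antigen. The median change was 0.02 over the family and 0.00 over all genes tested. Under equal totals 1 family gene was called, and likewise 1 without DMSO replicate 1 or without ML-792 replicate 2.

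At 16 h ML-792 raised the same 3 genes and 4 others in HCT116, with 0 falls, against 8.32% of all genes tested higher and 6.42% lower. Of the calls over all genes in HCT116, 56.4% were higher, against 35.4% under equal totals and 45.3% with median-of-ratios scaling. ZNF274 changed by 0.99 ± 0.07 there, by 0.39 ± 0.07 in COLO205 and by 0.22 ± 0.07 in MDAMB231 (SE; limma adjusted p = 3.62e-08, 0.000309 and 0.043). ZNF165 rose by 1.15 ± 0.07 in COLO205 and fell by 0.22 in MDAMB231 (limma adjusted p = 1.3e-09 and 0.0431). In COLO205 4 of 38 rose and 5 fell, against 19.4% and 17.7% of all genes tested. In MDAMB231 2 of 38 rose and 1 fell, against 8.38% and 8.48%. In MDAMB231, 1 family gene was called without ML-792 replicate 1 or DMSO replicate 2, and 0 by limma without ML-792 replicate 3. ZSCAN18 was at 15.8 FPKM ± 1.51 (SD, n = 3) in MDAMB231 with DMSO and listed at 0 in every HCT116 and COLO205 library with DMSO at 16 h.

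More of the family differed with heat shock, in both directions. In DMSO 15 of 35 rose and 9 fell, against 28.9% and 20.6% of all genes tested, with a median of 0.13 against 0.05 over all genes. ZNF394 rose most among them (1.14 ± 0.08, SE; limma adjusted p = 9.66e-08), from 6.48 FPKM ± 0.284 to 15.5 ± 1.26 (SD, n = 3). ZNF500 fell from 2.92 FPKM ± 0.18 to 1.06 ± 0.0776 (SD, n = 3; -0.93 ± 0.06, SE; limma adjusted p = 1.39e-07). In ML-792 16 rose and 7 fell, against 39.3% and 22.3% of all genes tested. Under equal totals 15 of the family were called in DMSO in place of 24.

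ML-792 in heat shocked cells raised 6 of the family and lowered 1 (33.5% of all genes called), led by ZNF274 (0.70 ± 0.09, SE; limma adjusted p = 0.000567). Without DMSO replicate 2 there were 4 family calls in place of 7. The difference between the ML-792 changes with and without heat shock was called for 2 of the 35, near the 6.41% of all genes tested. These were ZNF496 (0.44 ± 0.10, SE, limma adjusted p = 0.0279) and ZNF165 (-0.51 ± 0.13, SE, limma adjusted p = 0.0403). Both family calls were gone without the filter on low values, under equal totals and with the GC and length trend removed, and leaving out 1 library gave 0 to 4.

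**Figure D4:**
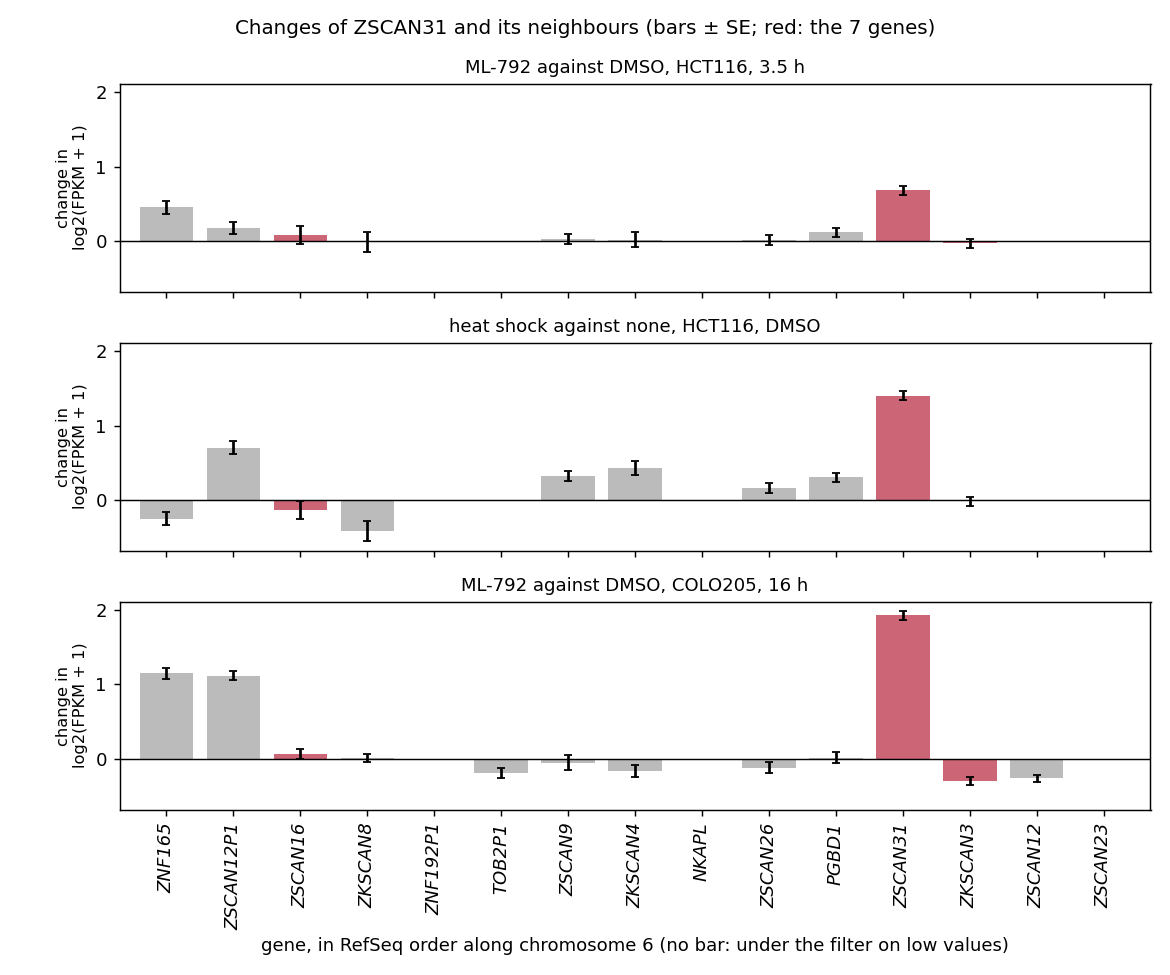
Change in log2(FPKM + 1) (vertical axes, bars ± 1 SE, 3 against 3 libraries) of ZSCAN31 and its neighbours in RefSeq order along chromosome 6, in 3 comparisons; red bars are genes among the 7, and genes under the filter on low values have no bar. The bar of ZSCAN31 stands apart from those of PGBD1 and ZKSCAN3 beside it (0.12 and -0.03 after 3.5 h of ML-792).

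ZSCAN31, ZSCAN16 and ZKSCAN3 lie in a run of SCAN zinc finger genes on chromosome 6, ZSCAN21, ZKSCAN1 and ZKSCAN5 on chromosome 7, and ZSCAN2 on chromosome 15. The genes on either side of ZSCAN31 that passed the filter, PGBD1 and ZKSCAN3, were not called after 3.5 h of ML-792 (0.12 ± 0.06 and -0.03 ± 0.06, SE). PGBD1 rose after heat shock in DMSO (0.31 ± 0.06, SE; limma adjusted p = 0.000873). The next tested gene beyond ZKSCAN3, TRIM27, fell (-0.33, limma adjusted p = 0.000183), and ZSCAN26 on the other side was at 0.17 ± 0.07 (SE; adjusted p = 0.0529). At the other end of the run, ZNF165 rose after 3.5 h of ML-792 (above), while ZSCAN16, 2 genes along, changed by 0.08 ± 0.12 (SE). ZSCAN12P1, between them and low (0.544 FPKM in HCT116 with DMSO at 3.5 h), was not called there (0.18 ± 0.08, SE). It was higher after heat shock in DMSO (0.70 ± 0.08, SE, limma adjusted p = 2.1e-05). With ML-792 at 16 h it was higher in COLO205 (1.12 ± 0.06) and HCT116 (0.38 ± 0.06, SE), and not called in MDAMB231 (0.05 ± 0.06, SE). ZSCAN31 and ZKSCAN3 share no exon bases in the annotation. The start window of ZKSCAN3 (chr6:28349697-28349996, plus strand) does lie between the upstream and downstream ZSCAN31 windows shown above, on the opposite strand.

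The patterns most like that of ZSCAN31 over the 10 group means were those of CRYBB3 (Pearson r = 0.857), TRIM5 (0.824), an entry the table names TRIpartite motif protein (0.811), RMND5A (0.779) and RPPH1 (0.761), out of 8797 genes whose means spanned at least 1 log2 unit. These are descriptions over 10 points that share libraries and treatments. CRYBB3, a lens crystallin gene, was at 0.0835 to 1.51 FPKM. TRIM5, a retrovirus restriction factor, ran from 5.48 FPKM in MDAMB231 with DMSO to 12.5 in COLO205 with ML-792. For the relatives, the highest values were 0.986 for ZSCAN2 (COG1), 0.996 for ZSCAN16 (MRI1), 0.844 for ZSCAN21 (ANKRD46), 0.987 for ZKSCAN1 (ZNF200), 0.995 for ZKSCAN3 (PPARD) and 0.981 for ZKSCAN5 (ZNF436), out of 11703 genes with no span required.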

How the data were processed

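Per the labels' protocols, stranded libraries of polyadenylated RNA were sequenced from biological triplicates. The authors deposited 1 table of FPKM (30373 genes, 30 libraries). DESeq2 1.10.1 appears in the submitters' processing notes, with no stated role. Aligner, annotation, genome build and use of strand in counting were not given in the sources used here. Depth was estimated from low FPKM values: relative depth from the most frequent ratios between libraries, and its scale from the value of 1 fragment in genes of known length, which is approximate. For heat shocked ML-792 replicates 1 and 2, the value of 1 fragment in the library alone gave 18.9 and 14.6 M. The estimates used for them were 37.7 and 43.8 M.

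Groups came from cell line, treatment, time and heat shock in the labels. Group means of log2(FPKM + 1) were fitted in limma 3.58.1 (R 4.3.3), with eBayes in its trend and robust forms. A gene entered a fit when 3 or more of its libraries reached 1 FPKM: 12191 genes over the 12 libraries of 3.5 h, 14251 over the 18 of 16 h. All 7 members passed in both. Within a comparison, p-values were adjusted by Benjamini-Hochberg across every gene fitted, and calls were made at 0.05. The fit was tested on simulated data. Replicates correlated at 0.993 or more and no 2 libraries were identical.

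The members and lists were chosen with earlier results of these data known. Named were all members, the 3 largest called rises and falls of the other SCAN family genes per comparison (of these, the text gives a selection), 2 tested neighbours on each side, and the genes most correlated over group means. Alternatives were other pseudocounts, filters, scalings, separate fits, plain variance, a GC and length correction, and leaving out each library.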

Additional observations from a re-analysis of the deposited data

Results flagged for a closer look

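The ML-792 change of ZSCAN31 in HCT116 at 3.5 h was smaller with heat shock than without, by -0.55 on the log2(FPKM + 1) scale (limma interaction contrast, Benjamini-Hochberg adjusted p = 0.00911), with changes of 0.68 without and 0.13 with heat shock. The same contrast was called for 6.41% of all genes tested.

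The measured changes of ZSCAN2 with ML-792 at 16 h had opposite signs in 2 lines. All 3 HCT116 libraries with ML-792 were below the 3 with DMSO (-0.17 ± 0.07, SE), and all 3 MDAMB231 libraries were above (0.14 ± 0.07, SE). The MDAMB231 means were low, at 1.00 and 1.21 FPKM. The share of all genes without overlap was not worked out. Neither the 2 changes nor the difference between the lines was tested.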

How the results depend on the processing

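The calls of ZSCAN31 after 3.5 h of ML-792, after heat shock in both treatments and for their difference held under all 9 alternatives and on leaving out each library. The cause of the shifts below was not tested. No paired analysis was possible because nothing in the labels numbers or pairs the triplicates. With 1 library left out (groups of 2 then borrow the spread of the other groups), the genes called numbered 83 to 93 in place of 147 for 3.5 h of ML-792, 1629 to 5011 in place of 4083 for ML-792 with heat shock, 77 to 2520 in place of 781 for the difference of changes, and 1180 to 2822 in place of 2101 for ML-792 in HCT116 at 16 h. The other SCAN family genes called numbered 1 to 3 (main count 3), 4 to 10 (7) and 0 to 4 (2) for the first 3 of these, and 0 to 3 (3) for ML-792 in MDAMB231. Members called numbered 0 to 1 for ML-792 with heat shock and 1 to 2 for the difference of changes. Without the filter on low values, 211 genes and 0 family genes were called for the difference of changes. With a filter at 5 FPKM, which kept 4 members in each fit, family calls were 4 for ML-792 with heat shock, 11 and 11 for heat shock in DMSO and in ML-792, and 17, 18 and 20 for COLO205 against HCT116, MDAMB231 against HCT116 and MDAMB231 against COLO205. With that filter 3 members were called in MDAMB231 against HCT116. With equal totals, family calls were 1 for 3.5 h of ML-792, 3 for ML-792 with heat shock and 15 for heat shock in DMSO. The difference of changes then gave 247 genes and 0 family genes, and ZSCAN21 after heat shock in ML-792 turned from 0.06 to -0.19 (limma adjusted p = 0.0491). Under equal totals the higher share of calls went from 63.8% to 24.2% for heat shock in ML-792, from 54.9% to 32.8% for ML-792 with heat shock, and from 56.4% to 35.4% for HCT116 at 16 h. With median-of-ratios scaling these were 50.3%, 37.1% and 45.3%. Fitting the groups of a comparison alone called 728 genes for 3.5 h of ML-792, 255 genes and 1 family gene for ML-792 with heat shock, and 1316 genes for ML-792 in HCT116 at 16 h. Removing the GC and length trend called 257 genes for 3.5 h of ML-792, 2129 genes and 1 member for ML-792 with heat shock, 320 genes and 0 family genes for the difference of changes, and 7 family genes for ML-792 in MDAMB231. Low levels limit precision, since ZKSCAN3 in COLO205 and ZSCAN2 in MDAMB231 lay near 1 FPKM.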
